A study of Mus musculus with 4 samples.

Results

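Alpha and beta tubulin isotypes were followed in TBV2 mouse embryonic stem cells (ESCs) treated with the histone deacetylase inhibitor MS-275. The 9 genes were chosen by symbol, 4 alpha isotypes (Tuba1a, Tuba1b, Tuba1c, Tuba4a) and 5 beta isotypes (Tubb2a, Tubb2b, Tubb3, Tubb5, Tubb6). Of these, 8 were found among the 28250 genes of the value tables used here, and Tuba1b was read from the alignments alone. TBV2 is an ESC line that was kept on feeder cells and gelatin in medium with LIF, the cytokine that maintains self-renewal. RNA-seq libraries were made from cells given solvent for 24 h (replicates 1 and 2) and from cells given 5 µM MS-275, an inhibitor of class I deacetylases, for 24 h (replicates 1 and 2). Nothing states that replicates came from separate cultures, so every p-value measures the spread between these libraries, which may be technical. The RNA was poly(A)-selected and primed with random hexamers.

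Microtubules are hollow polymers of dimers of 1 alpha and 1 beta tubulin, and each chain is encoded by several genes. The isotypes are alike over most of their length and differ mainly at the carboxy-terminal tail, where enzymes add or remove glutamate, glycine and tyrosine. Tuba1b, Tuba1c and Tubb5 are widely expressed, whereas Tuba1a, Tubb2a, Tubb2b and Tubb3 are abundant in developing neurons, and Tubb3 is a usual marker of them. Tubb6 is a divergent beta isotype of non-neuronal cells, and Tuba4a is the alpha isotype that lacks an encoded terminal tyrosine.

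The closeness of these genes bears on every value, because the deposited alignments were 35 bases long. The coding sequences of Tuba1a and Tuba1b, both of 1356 bases, were 98.3% identical, and those of Tubb2a and Tubb2b, both of 1338 bases, were 96.5% identical. The last 60 coding bases, which encode the tail, are shown for the beta pair in lower case, with the bases that differ from the partner in capitals. They are read 5′ to 3′ on the minus strand of mm9 (transcripts of GENCODE M1) at chr13:34166337-34166396 for Tubb2a and chr13:34219340-34219399 for Tubb2b.
Tubb2a: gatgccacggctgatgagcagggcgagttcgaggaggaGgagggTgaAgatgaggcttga
Tubb2b: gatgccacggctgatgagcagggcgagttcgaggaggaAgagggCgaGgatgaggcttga
The pair differed at 3 of these bases, and none of the 3 changes the encoded amino acid, so this stretch encodes the same tail in both. Over the whole coding sequence there were 47 differences between Tubb2a and Tubb2b and 23 between Tuba1a and Tuba1b, and the longest stretches without a difference were 551 and 281 bases.

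Each transcript was cut into all its windows of 35 bases, and a window was counted as unique when it occurred once in mm9 on either strand. The unique share was low for the Tuba1 genes, at 20.1% for Tuba1a, 12.1% for Tuba1b and 32.6% for Tuba1c. In their coding part alone it was 8.99%, 2.76% and 6.97%. Tubb2a and Tubb2b stood at 41.0% and 30.3%, and shared 779 windows with each other. By contrast, Tubb3 had 76.7% unique windows, Tubb5 95.0%, Tuba4a 96.1% and Tubb6 98.0%. The last 4 genes can therefore be measured along most of their length, and the others along a smaller part. The deposited alignments kept to unique windows. The 9 isotypes had 6596 shared windows, with 0, 40, 0 and 59 alignments there (solvent replicates 1 and 2, MS-275 replicates 1 and 2). In their unique windows the alignments numbered 33694, 4732, 42159 and 6050.

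The deposited values followed this share. The value of a gene divided by its alignments per kb of unique windows, per 1000000 alignments of the library, was 0.188 per 100 for Tuba1a and 1.18 per 100 for Tubb5 in solvent replicate 1. Across the 8 isotypes this quotient rose with the unique share, with Pearson's r between 0.982 and 0.995 for the values of the 4 libraries, paired in this way. This is a description across 8 genes that share their libraries. The values of different isotypes are thus not on 1 scale, and levels were compared between isotypes only per kb of unique windows. A ratio between the values of different isotypes is read only between libraries.

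**Figure D1:**
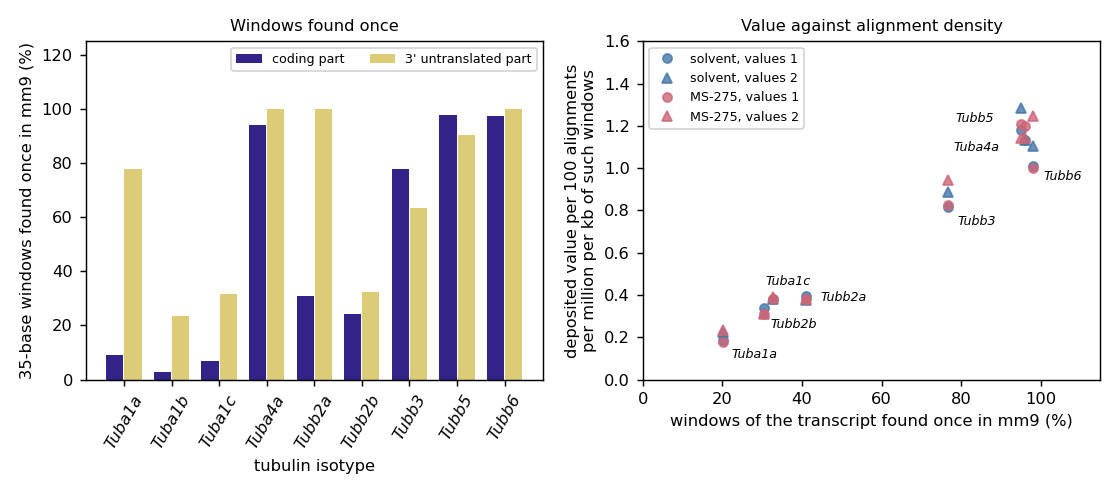
Left, bars give the percentage of 35-base windows found once in mm9 in the coding part and in the 3′ untranslated part of each of the 9 isotypes. Right, points give the deposited value per 100 of these scaled alignments per kb of such windows against their percentage in the transcript, for 8 isotypes and 4 libraries, each set of values over the alignments deposited with the other replicate. The Tuba1 coding parts stay under 10%, and the quotient is lowest for Tuba1a and highest for Tubb5, Tuba4a and Tubb6.

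The replicates differed in a way that touches several isotypes. The alignments deposited with replicate 1 numbered 23467935 with solvent and 20008841 with MS-275, of which 53.2% and 54.4% repeated a position, and those with replicate 2 numbered 9785619 and 10915650 with no repeat. The authors' shorter tables head the values of replicate 1 as OLD in both conditions, whereas OLD is in the name of the alignments deposited with replicate 2. The values also followed the alignments of the other replicate more closely. Across 10732 to 12469 genes, r was 0.930 to 0.945 with those and 0.810 to 0.875 with the alignments of the same sample. The values of replicate 1 thus went with alignments that hold no repeat. Such alignments can understate levels and changes of abundant isotypes, and the fold changes of pair 1 below are read with this limit. Its part in the spread between replicates was not tested. Replicate numbers below are those of the values unless the alignments are named, and pairs of libraries are formed by the same number in either case.

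Tubb2a, Tubb6 and Tuba1a were higher with MS-275, by 2.13-fold and 4.51-fold for Tubb2a, 2.09-fold and 2.91-fold for Tubb6 and 1.19-fold and 7.68-fold for Tuba1a in replicate pairs 1 and 2. The other 5 isotypes with a value did not pass any test without rescaling. In the comparison of group means, 0 of the 8 passed an adjusted p of 0.05 in either direction (limma, Benjamini-Hochberg), as against 0.00492% of the 20336 genes tested that were called higher and 0% lower. Before adjustment, 2 had p under 0.05 as higher (Tubb2a and Tubb6) and 0 as lower. With the replicate number as a block, 3 of 8 were called higher (Tuba1a, Tubb2a and Tubb6) and 0 lower, beside 21% of all genes called higher and 6.46% called lower. The median log2 fold change was 0.40 over the 8 isotypes and 0.20 over all genes tested. Cells that changed in number cannot be told apart here from a change of RNA per cell.

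**Figure D2:**
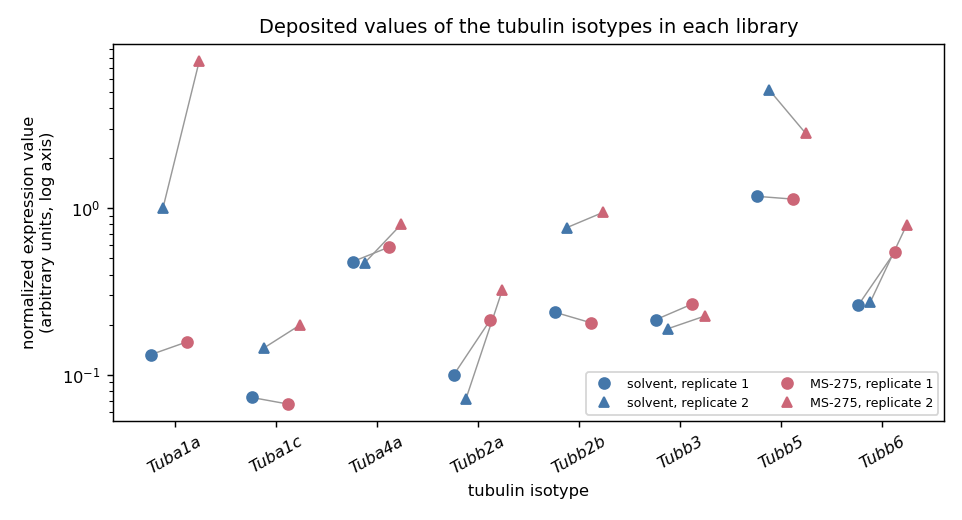
Points give the deposited normalized expression value (arbitrary units, log axis) of 8 tubulin isotypes in the 4 libraries, with lines joining solvent and MS-275 of the same replicate number. Tubb2a and Tubb6 lie higher with MS-275 in both pairs, whereas the wide rise of Tuba1a is in the pair of replicate 2, from 0.998 to 7.66.

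Among the beta isotypes, the value of Tubb2a was 0.100 and 0.0719 with solvent and 0.214 and 0.324 with MS-275 (replicates 1 and 2). Both treated libraries lay above both solvent libraries. The means were 0.0861 ± 0.0201 and 0.269 ± 0.0783 (SD, n = 2 each), and the log2 fold change on the scale of log2(value + 0.005) was 1.58 (SE 0.40, adjusted p = 0.0854 by limma). With the block its SE was 0.25 and its adjusted p 0.000323. Tubb2b, its neighbour on chromosome 13, had values of 0.238 and 0.767 with solvent and 0.205 and 0.948 with MS-275. These values differed more between replicates than between treatments, and the log2 fold change was 0.05 (SE 0.77, adjusted p = 0.991, and 0.911 with the block). The value of Tubb2a over that of Tubb2b was 0.422 and 0.0937 with solvent and 1.04 and 0.342 with MS-275. This ratio was higher with MS-275 in both pairs, and it is not a ratio of their levels.

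Tubb6 was at 0.261 and 0.273 with solvent and at 0.545 and 0.795 with MS-275. Its solvent libraries were close together and both treated libraries lay above them. The log2 fold change was 1.28 (SE 0.46, adjusted p = 0.187), and with the block SE 0.25 and adjusted p = 0.00118. Tubb3, the neuronal beta isotype, had values of 0.215 and 0.189 with solvent and 0.266 and 0.225 with MS-275. The groups did not overlap, but the log2 fold change of 0.27 (SE 0.37) did not pass, with an adjusted p of 0.825 and, with the block, 0.378. Tubb5, the highest of these beta isotypes in solvent per kb of unique windows, was at 1.18 and 5.14 with solvent and at 1.14 and 2.83 with MS-275. It was lower in both pairs, by little in the first, and the groups overlapped. Its log2 fold change was -0.46 (SE 1.50, adjusted p = 0.946, and 0.465 with the block).

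Among the alpha isotypes, Tuba1a had values of 0.132 and 0.998 with solvent and 0.158 and 7.66 with MS-275. The groups overlapped, since the solvent value of replicate 2 exceeded the MS-275 value of replicate 1. The log2 fold change was 1.59 (SE 1.54, adjusted p = 0.715). With the block it was called (SE 0.43, adjusted p = 0.0117), although the changes of the pairs were 0.25 and 2.93 on the log2 scale and limma draws this SE towards that of genes of like level. Without MS-275 replicate 2 the log2 fold change was -1.19, in a fit that sets MS-275 replicate 1 against both solvent libraries and so ignores the pairs. Tuba4a was at 0.479 and 0.473 with solvent and at 0.586 and 0.803 with MS-275, with no overlap. Its log2 fold change of 0.52 (SE 0.53) had an adjusted p of 0.731 and, with the block, 0.154. Tuba1c was at 0.0731 and 0.145 with solvent and at 0.0667 and 0.200 with MS-275, lower in the first pair and higher in the second, with a log2 fold change of 0.16 (SE 0.56, adjusted p = 0.949, and 0.651 with the block).

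In 4 of the 8 isotypes (Tuba4a, Tubb2a, Tubb3 and Tubb6) both MS-275 values lay above both solvent values, beside 32.3% of all genes tested, and in 0 of 8 both lay below, beside 12%. Within replicate pairs, 5 of 8 were higher in both (these 4 and Tuba1a), beside 50% of all genes, and 1 was lower in both (Tubb5), beside 26.5%. An exact permutation test of 1 gene with 2 libraries in each group cannot go below p = 0.333 (two-sided). Median-ratio scaling moved the median change of all genes on the log2 scale from 0.20 to 0.03, and quantile normalization to -0.03. Under these scalings with the block Tubb2a (1.35 and 1.42), Tubb6 (1.06 and 1.42) and Tuba1a (1.36 and 0.93) remained called, Tuba4a was called under quantile normalization alone (0.62, adjusted p = 0.00965), and Tuba1c and Tubb2b turned negative without a call.

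A second count of the same libraries used each alignment position once per strand, over the exons of mm9 genes. Tubb2a had 147 and 158 distinct positions in the alignments deposited with solvent replicates 1 and 2, and 312 and 381 in those deposited with MS-275. Tubb6 had 499 and 406 with solvent and 712 and 958 with MS-275. Both were called without a block, so that 2 of 9 isotypes were higher and 0 lower, beside 14.5% of 17923 genes called higher and 4.92% lower. The log2 fold change of Tubb2a was 1.24 (SE 0.22, adjusted p = 0.0102 by limma-voom) and that of Tubb6 was 0.95 (SE 0.17, adjusted p = 0.0106). With the block 3 of 9 were higher and 0 lower, beside 28.5% and 13.1% of all genes, with Tuba1a added (log2 fold change 0.70, SE 0.19, adjusted p = 0.00699, against 0.113 before).

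Tuba1a had 208 and 217 distinct positions with solvent and 353 and 305 with MS-275. All its alignments, repeats included, numbered 3136 and 217 with solvent and 19734 and 305 with MS-275. In the alignments deposited with MS-275 replicate 1, a single unique window held 19.2% of those on unique windows, and in those deposited with solvent replicate 1 it was 19.5%. Per kb of unique windows, all alignments rose 7.39-fold in these libraries and distinct positions 2.05-fold, and both were 1.27-fold in the alignments deposited with replicate 2. Distinct positions understate a change where the windows fill up. For Tuba1a, 33.8% and 34.3% of the positions that unique windows offer on both strands were used with solvent, and 57.6% and 48.5% with MS-275.

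Tuba1b, the widely expressed neighbour of Tuba1a on chromosome 15, had 84 and 62 distinct positions with solvent and 54 and 64 with MS-275. The groups overlapped, with a log2 fold change of -0.23 (SE 0.33, adjusted p = 0.675, and 0.522 with the block). Since 12.1% of its windows are unique, this rests on a small part of the transcript. In fits by part of the transcript, only tubulin genes were counted by part, over unique windows, and all other genes kept their exon counts. The coding part alone gave Tubb2a 1.38 (SE 0.25, adjusted p = 0.0116), Tubb6 1.02 (SE 0.21, adjusted p = 0.0168) and Tuba1a 0.78 (SE 0.30, adjusted p = 0.109). The 3′ untranslated part alone gave 1.10 (SE 0.37, adjusted p = 0.0752), 0.63 (SE 0.32, adjusted p = 0.209) and 0.57 (SE 0.36, adjusted p = 0.316), so the direction was the same in both parts and no call was made in the second. With the block, all 3 genes were called in both parts, with adjusted p between 5.96e-05 and 0.0475.

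**Figure D3:**
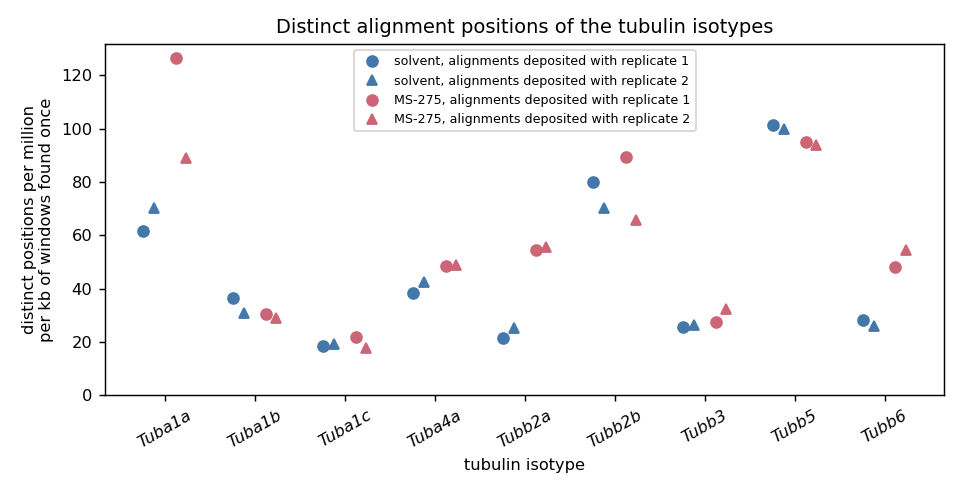
Points give the distinct alignment positions per kb of unique windows, per 1000000 distinct positions of the library, of the 9 isotypes, in the alignments deposited with each library. Tubb5 stays between 93.8 and 101, whereas Tubb2a goes from 21.5 and 25.3 to 54.6 and 55.7 and Tubb6 from 28.3 and 25.8 to 48.1 and 54.4. Distinct positions fill up, with 43.3% to 55.5% of those open to Tubb5 used, so a change of Tubb5 can be understated. All its alignments per kb went from 400 to 247 in those deposited with replicate 1, and those deposited with replicate 2 hold no repeat.

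On this scale, distinct positions per kb of unique windows and per 1000000 in the library, the isotypes were ordered over all their unique windows. For Tuba1b and Tuba1c most of these windows lie in the 5′ untranslated part. Positions were few there in solvent (6.46 and 1.61 for Tuba1b, 8.59 and 8.17 for Tuba1c). The places of Tuba1b and Tuba1c in the order are therefore not read as levels. In solvent, Tubb5 was highest (101 and 99.9), followed by Tubb2b (80.0 and 70.1) and Tuba1a (61.7 and 70.2), whose ranges overlapped. Tuba4a (38.3 and 42.3) and Tuba1b (36.5 and 30.9) came next and did not overlap each other. Tubb6 (28.3 and 25.8) and Tubb3 (25.6 and 26.3) overlapped, and Tubb2a (21.5 and 25.3) and Tuba1c (18.3 and 19.2) were lowest. With MS-275, Tuba1a reached 126 and 88.9, a range that held both values of Tubb5 (94.9 and 93.8) and the upper value of Tubb2b (89.4 and 65.6). Tubb2a (54.6 and 55.7) then lay above Tubb6 (48.1 and 54.4) and Tuba4a (48.4 and 48.8), and Tubb3 (27.3 and 32.2), Tuba1b (30.4 and 29.1) and Tuba1c (21.7 and 17.5) were lowest. RNA of the neuronal isotypes Tuba1a, Tubb2b and Tubb3 was thus present in the solvent cultures. In the coding unique windows alone, Tuba1b was at 98.9 and 90.5 with solvent (35 windows) and Tuba1c at 57.0 and 69.7 (88 windows). Tuba1a was at 57.6 and 66.3 there, and Tuba4a at 48.6 and 54.7. With MS-275 these coding figures were 50.1 and 107 for Tuba1b and 67.3 and 66.6 for Tuba1c. The order over all unique windows also rests on distinct positions, which fill up, since 55.5% and 48.9% of those open to Tubb5 were used with solvent. By all alignments per kb of unique windows, Tuba1a lay above Tubb5 in the alignments deposited with solvent replicate 1 (441 and 400.0) and MS-275 replicate 1 (3254 and 247), and below it in those deposited with solvent replicate 2 (70.2 and 99.9) and MS-275 replicate 2 (88.9 and 93.8). The alignments deposited with replicate 2 hold no repeat, so their figures here and in the shares below are those of distinct positions and fill up in the same way. Among the 5 beta isotypes, the share of Tubb5 by all alignments per kb of unique windows, a scale chosen after the data were seen, was 56.4% and 40.4% with solvent and 34.1% and 31.1% with MS-275 (alignments deposited with replicates 1 and 2). That of Tubb6 was 3.49% and 10.4% with solvent and 8.81% and 18.04% with MS-275, and that of Tubb2a 2.70% and 10.2% and then 11.7% and 18.5%. Tubb2b had 34.4% and 28.3% with solvent and 42.1% and 21.7% with MS-275. It thus lay above Tubb5 in the alignments deposited with MS-275 replicate 1. In both pairs of libraries Tubb5 took a smaller share with MS-275, and Tubb6 and Tubb2a a larger one.

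Other tubulin genes were followed in the same fits. With the block 4 of 11 were called higher and 0 lower (21% and 6.46% of all genes), and without it 0 in either direction, with 4 higher at an unadjusted p under 0.05. Over distinct positions without a block 4 of 9 were higher and 0 lower, beside 14.5% and 4.92% of all genes. Tubb4, a beta isotype of brain, had values of 0.0165 and 0.00896 with solvent and 0.131 and 0.0750 with MS-275, 7.93-fold and 8.37-fold higher (log2 fold change 2.59, SE 0.28, adjusted p = 1.35e-05 with the block). The testis alpha isotypes changed in the same direction. Tuba3a was at 0.132 and 0.0606 with solvent and 0.310 and 0.263 with MS-275 (1.62, SE 0.24, adjusted p = 0.000166 with the block), and Tuba3b at 0.0132 and 0.00780 and at 0.0828 and 0.0536 (2.23, SE 0.30, adjusted p = 6.54e-05). These 2 genes shared 607 windows. Tubb1, the isotype of platelets, was low throughout, at 0.00709 and 0.00061 with solvent and 0.0286 and 0.00867 with MS-275 (1.38, SE 0.28, adjusted p = 0.00202 with the block), and rested on 3 and 4 distinct positions with solvent and 14 and 31 with MS-275.

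The remaining tubulins were not called on the values. Tubb2c, a widely expressed beta isotype, was at 0.226 and 0.423 with solvent and 0.260 and 0.663 with MS-275, with overlap. Tubg1, the gamma tubulin of the centrosome, was at 0.148 and 0.130 with solvent and 0.203 and 0.216 with MS-275 (log2 fold change 0.58, adjusted p = 0.0618 with the block), and was called over distinct positions with the block (0.51, adjusted p = 0.0157). Tubg2, Tubd1 and Tube1, the second gamma, the delta and the epsilon tubulin, had log2 fold changes of 0.18, -0.19 and 0.16, with adjusted p between 0.652 and 0.677 with the block. Tuba8 and Tubal3 stayed between 0.00114 and 0.00632 in all libraries.

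**Figure D4:**
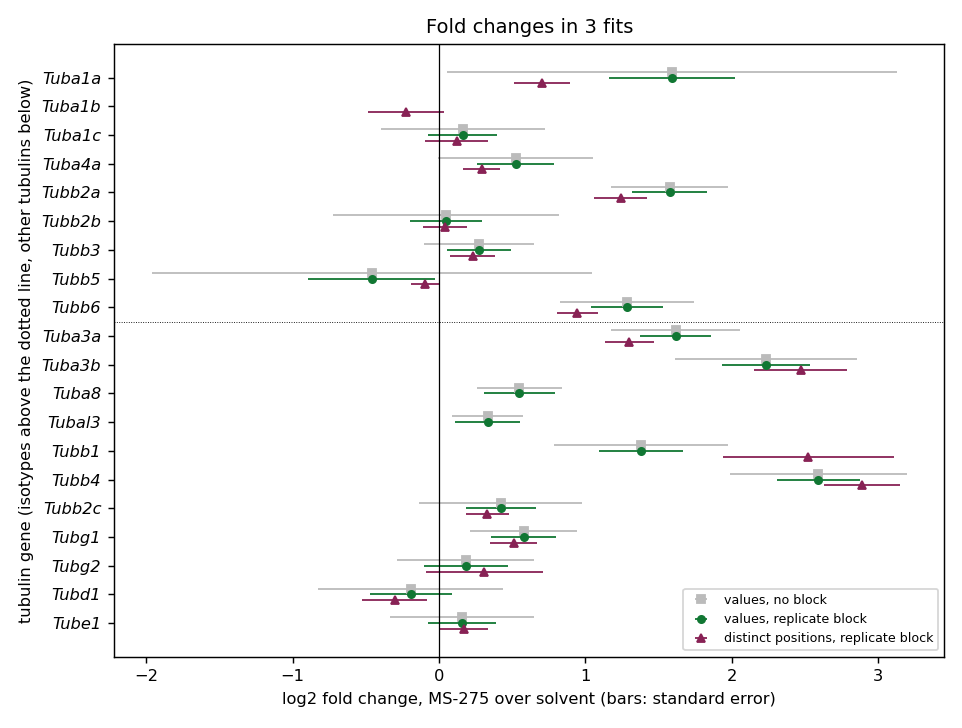
Points give the log2 fold change with MS-275 against solvent, and bars the standard error, of 9 tubulin isotypes (above the dotted line) and 11 other tubulin genes, from the values without and with the replicate block and from distinct positions with the block. Tubb4, Tuba3b, Tuba3a, Tubb2a and Tubb6 lie to the right of 0 in each fit, whereas Tubb5 and Tubd1 lie to the left.

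The genes that fold, modify and organise tubulin were counted in lists, on the values with the block unless stated, beside 21% of all genes called higher and 6.46% lower. Of 12 tubulin folding factors (the tubulin cofactors and prefoldin subunits among them) 0 were called, and 0 had an unadjusted p under 0.05 without the block. Over distinct positions with the block, 1 of 14 was higher and 1 lower, beside 28.5% and 13.1% of all genes. Of 23 tubulin modifying enzymes 9 were higher and 0 lower, a split that became 6 and 2 under median-ratio scaling and 6 and 3 under quantile normalization. Ttll7, a polyglutamylase of beta tubulin, went from 0.0123 and 0.00564 to 0.0673 and 0.0487 (log2 fold change 2.20, adjusted p = 8.92e-05). Svbp, the partner of the vasohibins that remove the terminal tyrosine of alpha tubulin, went from 0.171 and 0.154 to 0.292 and 0.384 (1.02, adjusted p = 0.00363).

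Of 13 neuronal microtubule-associated proteins and stathmins 5 were higher and 1 lower, a split that became 2 and 2 under quantile normalization with the block. Stmn4, a stathmin, was listed at 0 in both solvent libraries and at 0.00877 and 0.0150 with MS-275, and Dclk1, a doublecortin-like kinase, went from 0.00746 and 0.0150 to 0.0150 and 0.0754 (adjusted p = 0.00939). Stmn3, another stathmin, fell from 0.100 and 0.127 to 0.0502 and 0.0536 (log2 fold change -1.05, adjusted p = 0.00445). Of 20 regulators of microtubule dynamics, 1 was higher and 2 were lower. Mapre3, an end-binding protein, went from 0.0537 and 0.0286 to 0.143 and 0.0729, whereas Tacc2, a centrosomal protein, went from 0.208 and 0.140 to 0.0934 and 0.0291 and Map7, a partner of kinesin, from 0.323 and 0.333 to 0.191 and 0.124. Of 11 genes of gamma-tubulin nucleation 0 were higher and 2 lower, Akap9 (0.134 and 0.0655 to 0.0520 and 0.0286) and Mzt1 (0.466 and 0.552 to 0.293 and 0.326). On the values without the block none of these lists held a call by limma, and counts of risers and fallers whose unadjusted p was under 0.05 were 3 and 0 for the modifying enzymes, 2 and 1 for the neuronal proteins, 1 and 2 for the dynamics regulators and 0 and 0 for nucleation. Over distinct positions without the block, in the order of higher and lower, 4 and 0 of 22 modifying enzymes, 5 and 1 of 14 neuronal proteins, 1 and 2 of 20 dynamics regulators and 0 and 1 of 11 nucleation genes were called, beside 14.5% and 4.92% of all genes. With the block they were 8 and 1, 8 and 4, 3 and 5 and 0 and 3, beside 28.5% and 13.1%.

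**Figure D5:**
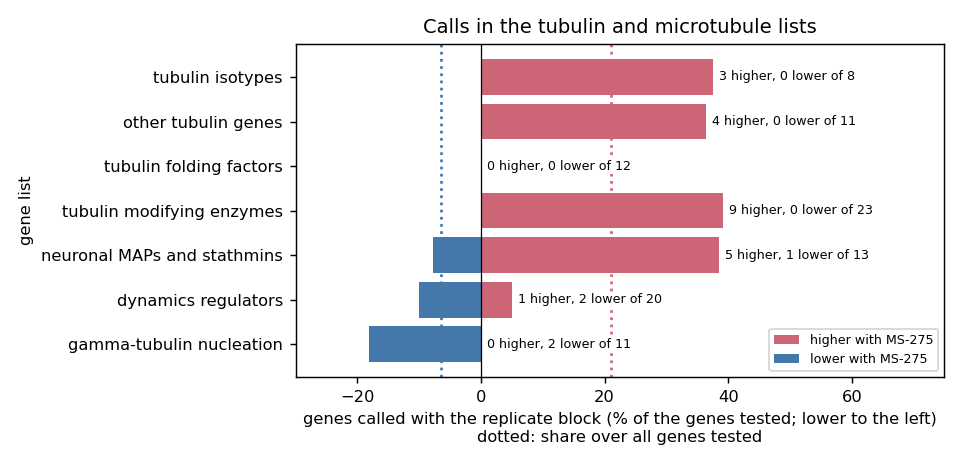
Bars give the percentage of the tested genes of each list that were called higher (right) or lower (left) with MS-275 in the fit with the replicate block, with the counts beside them, and dotted lines give the share over all genes, 21% and 6.46%. The bars of the isotypes, the other tubulins, the modifying enzymes and the neuronal proteins pass the dotted line on the right, and those of nucleation (2 of 11), dynamics regulators (2 of 20) and neuronal proteins (1 of 13) pass the line on the left.

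Markers of the cells that the culture could hold were measured beside the isotypes, with 21% of all genes called higher and 6.46% lower in the fit with the block. All 8 stem cell markers, Pou5f1 and Nanog among them, were present in each library, and 2 were called lower with the block. All 8 were lower with MS-275 in both pairs, beside 26.5% of all genes. The difference of Dppa5a in the first pair was slight (0.999-fold), and over distinct positions its log2 fold change was 0.06, without a call. Of 12 fibroblast markers, which feeder cells would carry, none was listed at 0 and 7 were called higher with the block. Their summed value was 0.362 and 0.308 with solvent and 0.692 and 0.697 with MS-275. Col3a1 (0.698-fold and 0.483-fold) and Dcn (0.314-fold and 0.473-fold) were lower in both pairs, and Col3a1 was called lower over distinct positions with the block (log2 fold change -1.09, adjusted p = 0.0294). The sum was higher with MS-275 in both pairs, as were Tubb6 and Tubb2a, and the part of the marker cells in those changes was not tested. Of 10 neuron markers tested 5 were called higher with the block, while the summed value of all 12 was 1.20 and 2.26 with solvent and 1.27 and 2.38 with MS-275. The largest single part of that sum in each library was Stmn2, at 0.856 and 1.99 with solvent and 0.600 and 1.45 with MS-275. Stmn2, like Gap43 (0.791-fold and 0.660-fold), was lower in both pairs, while the sum was not. Stmn2 was not called on the values, and was called lower over distinct positions with the block (log2 fold change -0.45, adjusted p = 0.00706). Dcx was listed at 0 in solvent replicate 1 and Map2 in both solvent libraries, and Map2 did not reach 0.001 with MS-275. Over distinct positions, however, Map2 was called higher (log2 fold change 1.40, SE 0.15, adjusted p = 0.00475 by limma-voom), so the value and the position count of Map2 differ. The cause of that difference was not tested, and the value of Map2 is not read as its level. The part of such cells in the neuronal isotypes was not tested. Of 7 spermatid markers, Prm2 was listed at 0 in every library and Prm1 in both solvent libraries, and 1 of the 5 tested was called higher.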

How the data were processed

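RNA-seq of 2 solvent and 2 MS-275 libraries was analysed, grouped by their deposited titles. The deposited values are a normalized expression signal per gene, which the authors made with Genomatix after mapping to mm9. The formula and the aligner are not given in the sources used here. The deposited alignments give positions of 35 bases, 1 fewer than the read length that the methods state. The vehicle is named differently in the sources (solvent, ETOH, DMSO), so it is called solvent. The authors' ratios and shortened tables were not used.

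Genes at 0.001 or more in at least 2 libraries were kept, and log2(value + 0.005) was fitted with limma 3.58.1 in R 4.3.3 (lmFit and eBayes with a trend, two-sided). P-values were adjusted by the Benjamini-Hochberg method over all genes tested, and genes under 0.05 were called. Since the headers call replicate 1 of both conditions OLD, the replicate number was also fitted as a block. After each group mean was subtracted, libraries of the same number correlated at 0.764 over 20336 genes. Blocked values stand beside a result where they change a call. Distinct alignment positions were counted over exons of GENCODE M1 and fitted with voom where at least 10 occurred in at least 2 libraries. For fits by part of the transcript, only the counts of tubulin genes were replaced, by those over unique windows of the part. The trend and the adjustment of p thus rest on exon counts of the other genes. Python 3.11.15 was used for windows and counts. Antisense reads could not be told apart. Alignment counts are not independent molecules, and the depth behind a value is not given by the value itself. The steps were tested on simulated data.

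The members and gene lists were chosen with earlier results of these data known. The genes named are the 9 isotypes, the other tubulins, from each further list the 2 largest rises and the 2 largest falls called with the block, and the 3 genes nearest in pattern to the isotype with the largest change. Alternatives were other pseudocounts (0.001, 0.02), filters and scalings, no trend, the block, distinct positions by part of the transcript, and each library left out. Some sequences are not reported here.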

Additional observations from a re-analysis of the deposited data

How the results depend on the processing

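With 2 libraries per group the comparison without a block called no isotype, and the counts depend mainly on the replicate block. For isotypes called higher, the block gave 3, also with pseudocounts of 0.001 and 0.02 and with median-ratio scaling, and 4 with quantile normalization. Keeping genes with a mean of at least 0.01 gave 1 (Tubb2a, adjusted p = 0.0448 over fewer genes), and distinct positions gave 2 and, with the block, 3. No alternative run called an isotype lower. Other tubulins called numbered 2 with the mean filter, 4 in the 5 blocked fits of the values, 4 over distinct positions and 5 there with the block, and 0 to 1 when 1 library was left out (1, Tuba3a, without solvent replicate 1). With the block, with pseudocounts of 0.001 and 0.02, with quantile normalization and with median-ratio scaling, calls numbered 9, 8, 8, 9 and 8 for modifying enzymes, 6, 6, 6, 4 and 6 for neuronal proteins, 3, 3, 3, 5 and 4 for dynamics regulators and 2, 2, 2, 2 and 3 for nucleation, and folding factors had 2 with quantile normalization alone. Over distinct positions without and with the block they numbered 4 (4 higher, 0 lower) and 9 (8 and 1) for modifying enzymes, 6 (5 and 1) and 12 (8 and 4) for neuronal proteins, 3 (1 and 2) and 8 (3 and 5) for dynamics regulators, 1 (0 and 1) and 3 (0 and 3) for nucleation and 0 and 2 (1 and 1) for folding factors, beside 14.5% of all genes higher and 4.92% lower without the block and 28.5% and 13.1% with it. Isotypes called over distinct positions were 2 over all exons, 0 in the 3′ untranslated part and 1 to 3 when 1 library was left out (1 without solvent replicate 2 and 3 without MS-275 replicate 2).

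Signs that turned were all without a call. Scalings gave the same value with and without the block, namely -0.017 (quantile) and -0.058 (median-ratio) for Tuba1c, -0.056 and -0.18 for Tubb2b, -0.040 (quantile) for Tubal3, -0.35 (quantile) for Tubg2 and -0.064 (median-ratio) for Tube1. When 1 library was left out, log2 fold changes ranged from -1.19 to 4.37 for Tuba1a, -0.59 to 0.92 for Tuba1c, -1.04 to 1.14 for Tubb2b, -1.52 to 0.60 for Tubb5, -0.24 to 1.09 for Tubb2c, -0.83 to 0.44 for Tubd1 and -0.38 to 0.69 for Tube1. Such fits leave the replicates unbalanced and 1 library alone in its group, which is assumed to vary like the others. Tubb2a stayed between 1.28 and 1.87 and Tubb6 between 1.01 and 1.55. The causes were not tested.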

Other observations

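In the comparison of group means Tuba1a had the largest log2 fold change of the isotypes (1.59 with SE 1.54, against 1.58 for Tubb2a, which was the larger with a pseudocount of 0.001, under quantile normalization and over distinct positions). The genes closest to it in pattern were looked up over log2(value + 0.005) of the 4 libraries. The nearest by Euclidean distance were Uqcr11 (1.28), LOC100503758 (1.30) and LOC100505015 (1.34). Uqcr11, a subunit of respiratory complex III, was at 0.227 and 1.27 with solvent and at 0.244 and 4.53 with MS-275 (replicates 1 and 2). Like Tuba1a, these genes were higher in replicate 2 than in replicate 1 of both conditions, which follows from how they were picked.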
